A study of Homo sapiens with 12 samples.

Results

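The 9 genes described here are antioxidant targets of the transcription factor NRF2: SLC7A11, GCLC, GCLM, TXN, TXNRD1, PRDX1, SRXN1, HMOX1 and NQO1. They were taken by symbol from the 58735 genes of the deposited tables. The rule itself uses no measured value, but the list was chosen with earlier results of these data known. NRF2, encoded by NFE2L2, is held low in resting cells because KEAP1 hands it to a ubiquitin ligase, and electrophiles or oxidants that modify KEAP1 let it accumulate. With small MAF proteins it then binds antioxidant response elements in the promoters of genes for glutathione synthesis, thioredoxin recycling, quinone reduction and haem breakdown, while BACH1 occupies the same elements as a repressor. Many tumour lines keep part of this programme switched on.

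RNA was sequenced from MDA-MB-231, a triple-negative, mesenchymal-like human breast cancer line, carrying a guide RNA (sg) against UFM1, a guide against UFL1, or control guides. UFM1 is a ubiquitin-like modifier, UFL1 is its ligase, and much of this modification takes place at ribosomes docked on the endoplasmic reticulum (ER). There were 4 groups of 3 libraries: sgUFM1, sgUFL1, controls for sgUFM1 and controls for sgUFL1. The labels give no treatment beyond the guides, no time after their delivery and no word on whether the cells were a pool or 1 clone, and the series is called a knockdown in its title and a knockout in its design text. The identity of a control guide's target is not given in the sources used here. Whether the 3 libraries of a group were grown separately is not stated, so p-values reflect how far these libraries spread, and that spread may be technical.

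The deposited tables disagree on 6 of the 12 libraries. The library values behind the count columns named sgUFL1 stand in the FPKM table (fragments per kilobase of transcript, scaled to library depth) under the name of the controls for sgUFM1, and the reverse holds for the other 3. Set 1 below means the 3 libraries called sgUFL1 among the counts and controls for sgUFM1 among the FPKM values. Set 2 means the 3 called controls for sgUFM1 among the counts and sgUFL1 among the FPKM values. Under the names of the count table, sgUFL1 against its own controls is set 1 against the controls for sgUFL1, and sgUFM1 against its own controls is sgUFM1 against set 2. Under the names of the FPKM table, sgUFL1 against its own controls is set 2 against the controls for sgUFL1, and sgUFM1 against its own controls is sgUFM1 against set 1. The groups sgUFM1 and controls for sgUFL1 are named alike in both tables. Comparing that pair sets the UFM1 guide against the other guide's controls, so the guide and a difference between control groups cannot be told apart there. The control groups differed from each other in 5438 genes under the names of the count table and in 165 under those of the FPKM table (adjusted p under 0.05, edgeR's quasi-likelihood test).

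The RNA of the targeted genes was read first. UFM1 averaged 38.7 ± 1.39 CPM (counts scaled to library depth) in sgUFM1, 53.6 ± 4.11 CPM in set 1, 53.7 ± 2.14 CPM in set 2 and 65.4 ± 5.84 CPM in the controls for sgUFL1 (SD, n = 3 each). UFL1 averaged 23.1 ± 2.34 CPM in sgUFM1, 18 ± 1.37 CPM in set 1, 12.4 ± 0.87 CPM in set 2 and 24.8 ± 5.26 CPM in the controls for sgUFL1. UFM1 was thus lowest in sgUFM1, and UFL1 was lowest in set 2, called controls for sgUFM1 among the counts and sgUFL1 among the FPKM values. A guide that shifts the reading frame need not lower RNA, and transcripts with such a shift are still counted. Totals ran from 15342793 to 18033331 counts per library. Of 8 markers of this line, 7 averaged over 1 CPM and SPARC was at 0.741 CPM. Of 5 markers that should be absent or low, ERBB2 and EPCAM were over 1 CPM, and ESR1, PGR and CDH1 averaged below it. Leukocyte markers summed to at most 6.69 CPM, with CD3E, MS4A1 and HBA1 at 0 in all 12 libraries.

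Promoters are shown for GCLM, the member with the smallest p against set 2, and for TXNRD1, the member lower in sgUFM1 than in the controls for sgUFL1. RefSeq promoters on GRCh38.p14 were matched for 6 of the 9 members, and the 250 bases before each start were searched on both strands for the cores TGACNNNGC and TGAGNNNGC of the antioxidant response element (N is any base; no stretch can match both). The GCLM stretch lies at chr1:93909431-93909680 on the minus strand and the TXNRD1 stretch, of the upstream of the pair of TXNRD1 starts, at chr12:104215529-104215778 on the plus strand. Both read 5′ to 3′ along the gene, and capitals mark the match.
GCLM: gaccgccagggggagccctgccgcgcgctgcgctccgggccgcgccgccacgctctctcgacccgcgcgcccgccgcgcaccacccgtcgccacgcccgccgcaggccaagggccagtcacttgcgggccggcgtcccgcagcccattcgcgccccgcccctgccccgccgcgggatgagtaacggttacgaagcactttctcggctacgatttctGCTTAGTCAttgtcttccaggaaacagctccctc
TXNRD1: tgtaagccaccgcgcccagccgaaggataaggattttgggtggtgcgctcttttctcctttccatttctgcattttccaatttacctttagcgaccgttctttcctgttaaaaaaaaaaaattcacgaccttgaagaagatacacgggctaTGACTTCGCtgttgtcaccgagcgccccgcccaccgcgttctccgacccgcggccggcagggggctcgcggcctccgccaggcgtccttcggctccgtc
In GCLM the match is TGACTAAGC on the opposite strand, at -34 from the start, and in TXNRD1 it is TGACTTCGC at -99. Each position is that of the most upstream base of the match along the gene, on either strand. The downstream TXNRD1 start had TGACAAAGC at -102 (opposite strand) and TGAGCAGGC at -198, and NQO1 had TGAGGCTGC at -119 (opposite strand). In all, 4 of 7 promoters, from 3 of the 6 matched members, held a match, and 23.9% of 35116 RefSeq promoters of the same length did. No match was found within these windows for GCLC, SRXN1 and TXN. A match is a string of letters and not a measured binding site.

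Per length of transcript the 9 genes differed widely in level. TXN, the small redox protein thioredoxin, averaged 341 FPKM over the 12 libraries (281 to 419 FPKM) and ranked 65 among 16953 protein-coding genes. PRDX1, a peroxiredoxin that reduces hydrogen peroxide, averaged 220 FPKM (189 to 291 FPKM) and ranked 106. TXNRD1, the cytosolic thioredoxin reductase, averaged 72.7 FPKM and NQO1, the quinone reductase, 50.8 FPKM. The others were lower. GCLM, the modifier subunit of the ligase that starts glutathione synthesis, averaged 11 FPKM and SLC7A11, the cystine importer xCT, 7.07 FPKM. HMOX1, which breaks down haem, averaged 4.02 FPKM, GCLC, the catalytic subunit of the ligase, 3.48 FPKM, and SRXN1, sulfiredoxin, which repairs overoxidised peroxiredoxins, 3.47 FPKM. Neighbours in this order overlapped in range except PRDX1 with TXNRD1 (59.4 to 84.8 FPKM) and NQO1 (38 to 75 FPKM) with GCLM (7.63 to 13.9 FPKM).

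**Figure D1:**
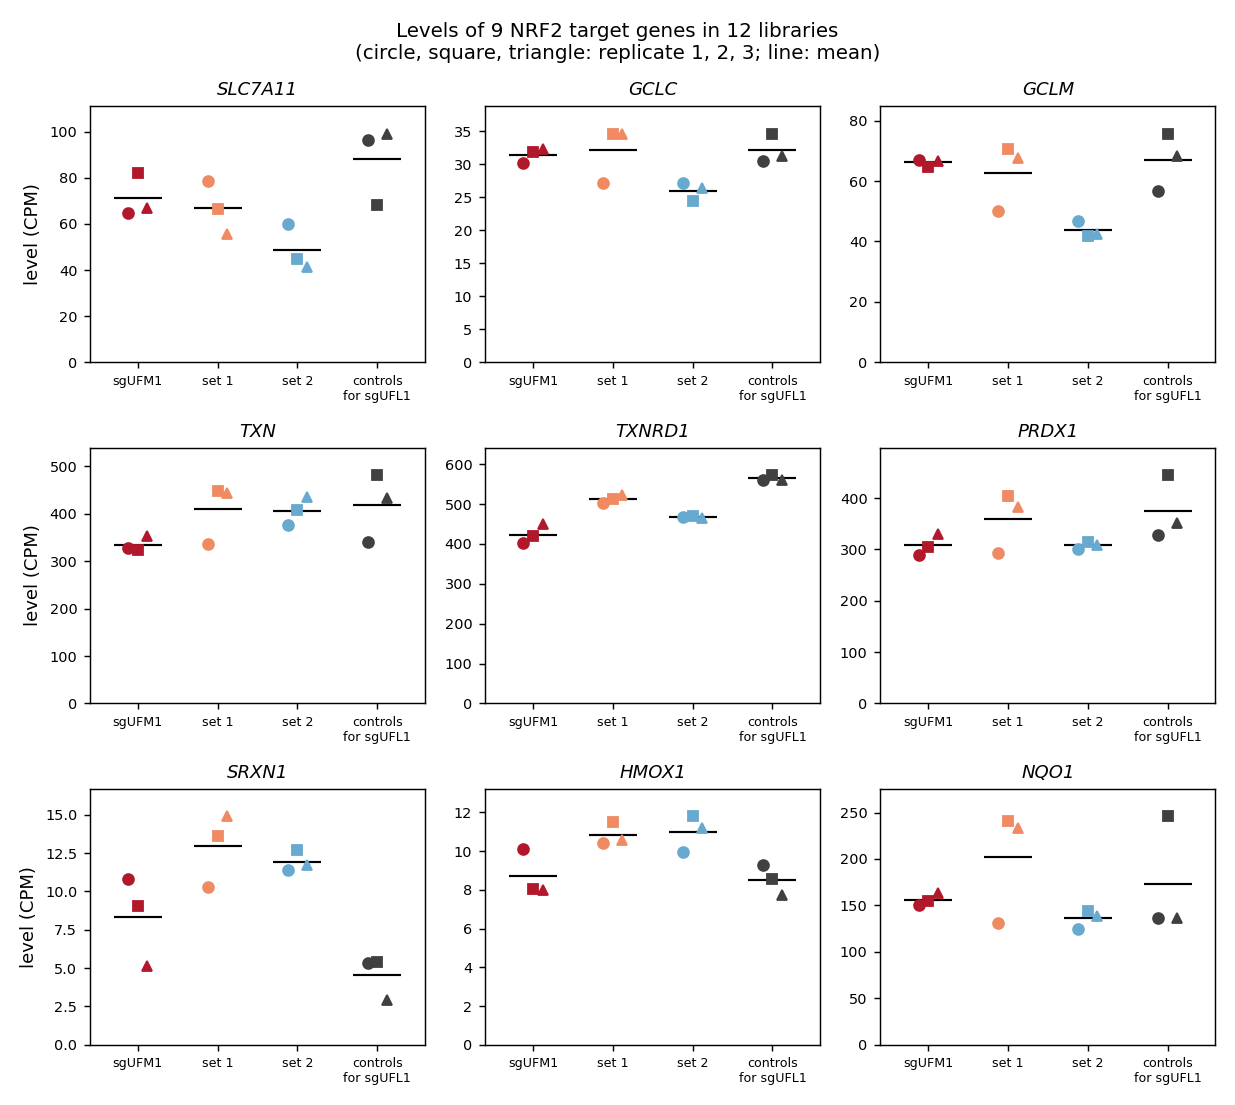
Level of each gene in CPM (vertical axis, from 0) in the 3 libraries of sgUFM1, set 1, set 2 and the controls for sgUFL1, with replicates 1, 2 and 3 as circle, square and triangle and the mean as a line. SRXN1 is lowest in the controls for sgUFL1 (2.91 to 5.43 CPM), TXNRD1 is lowest in sgUFM1 (402 to 449 CPM), and NQO1 spreads widest within set 1 and within the controls for sgUFL1.

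Cystine import and glutathione synthesis came first in the order of roles. SLC7A11 was at 64.6, 82.1 and 67.1 CPM in sgUFM1, 78.8, 66.6 and 55.6 CPM in set 1, 59.9, 44.9 and 41.3 CPM in set 2, and 96.6, 68.2 and 99.2 CPM in the controls for sgUFL1. All 3 sgUFM1 libraries lay above all 3 of set 2, and set 2 lay below the controls without overlap. GCLM was at 67.1, 64.8 and 66.8 CPM in sgUFM1, 50.1, 70.5 and 67.8 CPM in set 1, 46.7, 41.9 and 42.5 CPM in set 2, and 56.7, 75.7 and 68.3 CPM in the controls for sgUFL1. Set 2 was again the low set, below every library of the other 3 sets. GCLC was at 30.1, 31.8 and 32.3 CPM in sgUFM1, 27.1, 34.6 and 34.6 CPM in set 1, 27.1, 24.4 and 26.3 CPM in set 2, and 30.5, 34.5 and 31.2 CPM in the controls for sgUFL1. Set 2 had the lowest mean here too, and it met set 1 at replicate 1 of set 1. Since these are bulk samples, fewer cells with a transcript and less transcript per cell cannot be told apart here or below.

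The thioredoxin and peroxiredoxin genes divided. TXNRD1 was at 402, 419 and 449 CPM in sgUFM1, 503, 513 and 522 CPM in set 1, 468, 470 and 464 CPM in set 2, and 561, 573 and 560 CPM in the controls for sgUFL1. None of the 4 sets overlapped another, in the order sgUFM1, set 2, set 1, controls from low to high. SRXN1 was at 10.8, 9.08 and 5.14 CPM in sgUFM1, 10.3, 13.6 and 14.9 CPM in set 1, 11.4, 12.7 and 11.7 CPM in set 2, and 5.36, 5.43 and 2.91 CPM in the controls for sgUFL1. Sets 1 and 2 lay above the controls without overlap. In sgUFM1 replicate 3 lay inside the range of the controls and replicate 1 inside that of set 1, and all 3 lay below set 2. PRDX1 was at 290, 304 and 331 CPM in sgUFM1, 293, 405 and 382 CPM in set 1, 301, 315 and 308 CPM in set 2, and 328, 445 and 351 CPM in the controls for sgUFL1. TXN was at 327, 324 and 353 CPM in sgUFM1, 336, 448 and 445 CPM in set 1, 377, 408 and 435 CPM in set 2, and 340, 482 and 433 CPM in the controls for sgUFL1. For both, sgUFM1 overlapped the controls and set 1. For TXN it lay wholly below set 2.

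HMOX1 was at 10.1, 8.05 and 8 CPM in sgUFM1, 10.4, 11.5 and 10.6 CPM in set 1, 9.95, 11.8 and 11.2 CPM in set 2, and 9.27, 8.54 and 7.73 CPM in the controls for sgUFL1. Its 4 set means stayed within 1.29 times of each other. NQO1 was at 151, 155 and 163 CPM in sgUFM1, 131, 241 and 233 CPM in set 1, 125, 144 and 139 CPM in set 2, and 137, 246 and 137 CPM in the controls for sgUFL1. The range within set 1 was wider than the range of the set means, and the coefficient of variation within a set reached 36.1%. Across all 9 genes the ratio of the highest to the lowest set mean ran from 1.22 for PRDX1 to 2.83 for SRXN1.

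Both tables name sgUFM1 and the controls for sgUFL1 alike, though these controls belong to the other guide. This pair of groups showed lower thioredoxin reductase RNA in sgUFM1. TXNRD1 was the member that passed the threshold (edgeR's quasi-likelihood test, Benjamini-Hochberg adjusted p under 0.05 over 15035 genes), and it fell by 0.42 on the log2 scale (SE 0.10, adjusted p = 0.022), with 423 CPM on average in sgUFM1 and 564 CPM in the controls. So 1 of 9 members was lower and 0 of 9 higher, while 4.43% of all genes tested were lower and 5.57% higher. By DESeq2 SRXN1 was also called, so 1 was higher and 1 lower. At an unadjusted p under 0.05 there were 1 higher and 3 lower, with no share of all genes at that threshold given here. The members' median log2 fold change was -0.15, against 0 for all genes. The log2 fold changes of the 8 members that did not pass ran from -0.33 for TXN to 0.86 for SRXN1 (SE 0.30, adjusted p = 0.081). The TXNRD1 call ended when any 1 sgUFM1 library or replicate 1 of the controls was left out (adjusted p 0.053 to 0.16), and it was kept at -0.31 (adjusted p = 0.033) once offsets removed each library's trend with GC content and gene length. Leaving out replicate 2 of the controls brought SLC7A11 (-0.47, adjusted p = 0.0096) and SRXN1 (1.00, adjusted p = 0.03) past the threshold, and leaving out replicate 1 brought TXN (-0.45, adjusted p = 0.048). Without replicate 2 of the controls calls over all genes rose from 1503 to 4196.

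Against set 2, GCLM, SLC7A11, GCLC and NQO1 rose in sgUFM1, and TXN and SRXN1 fell. GCLM was higher by 0.61 on the log2 scale (SE 0.08, adjusted p = 7e-06), SLC7A11 by 0.55 (SE 0.12, adjusted p = 0.00085), GCLC by 0.28 (SE 0.09, adjusted p = 0.018) and NQO1 by 0.21 (SE 0.07, adjusted p = 0.02). TXN fell by 0.27 (SE 0.06, adjusted p = 0.0024) and SRXN1 by 0.51 (SE 0.18, adjusted p = 0.034). That is 4 of 9 higher and 2 of 9 lower, where 19.3% of 15083 genes were higher and 18.5% lower, so a call is common between these sets. GCLM, SLC7A11, NQO1 and TXN kept the call with offsets (0.43, 0.22, 0.20 and -0.44 on the log2 scale), and GCLC and SRXN1 did not (adjusted p 0.38 and 0.087). By DESeq2 SRXN1 missed the threshold too (-0.52, adjusted p = 0.057). GCLC was also lost without sgUFM1 replicate 2 or 3 or set 2 replicate 2 (adjusted p 0.064 to 0.098), and SRXN1 without those or set 2 replicate 3 (adjusted p 0.052 to 0.21). NQO1 was lost without sgUFM1 replicate 2 or 3 or set 2 replicate 1 (adjusted p 0.063 to 0.088). TXNRD1 was at -0.14 (SE 0.06, adjusted p = 0.08) and passed with offsets (-0.24), with DESeq2, and without sgUFM1 replicate 3 or set 2 replicate 1. HMOX1, at -0.32 (SE 0.14, adjusted p = 0.08), passed without sgUFM1 replicate 1 (-0.44) or set 2 replicate 1 (-0.40).

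Against set 1, TXNRD1 alone passed, lower in sgUFM1 by 0.28 on the log2 scale (SE 0.08, adjusted p = 0.043). This was 1 of 9 lower and 0 of 9 higher, where 5.15% of 14977 genes were lower and 4.57% higher. At an unadjusted p under 0.05 there were 3 lower and 0 higher (share of all genes at that threshold not given), by DESeq2 1 lower and 0 higher. The median of the members was -0.28, against -0.01 for all genes. The call was lost when any sgUFM1 library or set 1 replicate 2 or 3 was left out (adjusted p 0.1 to 0.2), and it stood at -0.33 with offsets (adjusted p = 0.015). Leaving out replicate 1 of set 1 gave 5 members lower: NQO1 at -0.59, TXN at -0.41, PRDX1 at -0.35 and SRXN1 at -0.76 joined TXNRD1. Calls over all genes rose as well in that fit, from 1456 to 4080.

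Sulfiredoxin RNA was higher in sets 1 and 2 than in the controls for sgUFL1. In set 1 it rose by 1.51 on the log2 scale (SE 0.26, adjusted p = 0.049), with 12.9 CPM on average in set 1 and 4.57 CPM in the controls, 1 of 9 members against 1.08% of 14996 genes higher and 0 of 9 against 0.0200% lower. At an unadjusted p under 0.05 there were 1 higher and 0 lower (share of all genes at that threshold not given), by DESeq2 likewise. That call missed the threshold with RLE scaling (adjusted p = 0.053) and with offsets (1.35, adjusted p = 0.2), and without set 1 replicate 2 or 3 or without replicate 1 or 3 of the controls (adjusted p 0.079 to 0.25). Without replicate 2 of the controls SLC7A11 passed as well, at -0.54 (adjusted p = 0.035), and calls over all genes rose from 165 to 2419. In set 2 SRXN1 rose by 1.37 (SE 0.22, adjusted p = 0.0015), with 12 CPM in set 2 and 4.57 CPM in the controls, and it kept the call in every alternative run, at 1.17 with offsets (adjusted p = 0.0066).

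In the same comparison of set 2 with the controls 3 members fell. SLC7A11 fell by 0.87 on the log2 scale (SE 0.17, adjusted p = 0.0028), GCLM by 0.63 (SE 0.13, adjusted p = 0.0034) and TXNRD1 by 0.29 (SE 0.10, adjusted p = 0.035). The background was 17.4% of 15175 genes higher and 18.4% lower, against 1 of 9 members higher and 3 of 9 lower. With offsets none of the 3 kept the call (SLC7A11 -0.30, GCLM -0.27, TXNRD1 -0.07), and PRDX1 gained one at -0.41 (adjusted p = 0.023). TXNRD1 also missed the threshold with no filter on low counts (adjusted p = 0.13) and without any set 2 library or replicate 1 of the controls (adjusted p 0.065 to 0.17). The comparisons above share libraries: sgUFM1 enters 3 of them, and the controls for sgUFL1 enter 3.

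**Figure D2:**
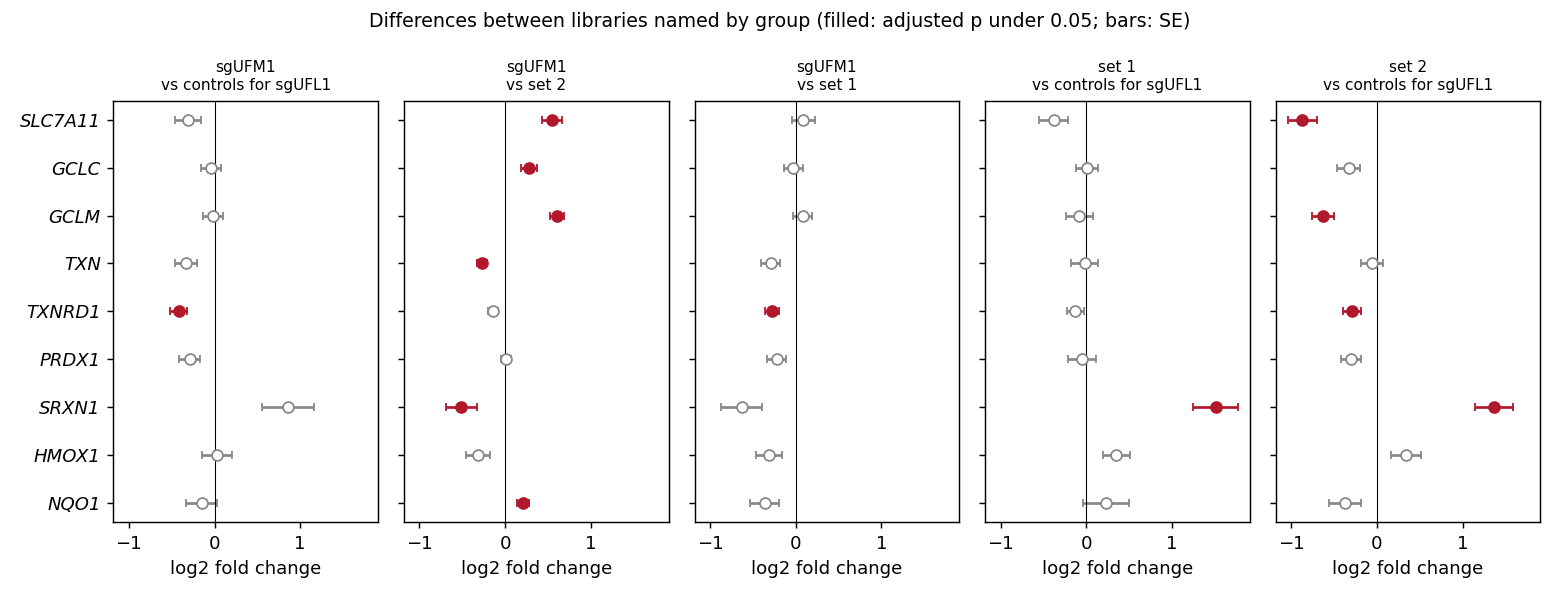
Log2 fold change of each gene (horizontal axis) in the 5 comparisons, first group over second, with bars of 1 SE and filled points where the adjusted p was under 0.05. SRXN1 reaches 1.51 and 1.37 over the controls for sgUFL1 in set 1 and set 2, and GCLM and SLC7A11 stand at 0.61 and 0.55 in sgUFM1 against set 2.

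Between set 1 and set 2, 0 of 9 members passed in edgeR's quasi-likelihood test, where 0.705% of 15033 genes were higher and 1.49% lower. At an unadjusted p under 0.05, 4 members were higher and 0 lower. Those shares are at the adjusted threshold, and the share of all genes at the unadjusted one is not given here. The 4 were NQO1, GCLC, GCLM and SLC7A11, at 0.56, 0.30, 0.51 and 0.45 on the log2 scale. DESeq2 called GCLM alone (0.52, adjusted p = 0.007). Without replicate 1 of set 1, NQO1, GCLC, GCLM and PRDX1 were called higher in set 1, while calls over all genes rose from 330 to 2564.

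The difference between the 2 guides, (sgUFM1 minus set 2) minus (set 1 minus controls for sgUFL1), has the same value whichever table's names are right. SRXN1 stood at -2.01 on the log2 scale (SE 0.36, adjusted p = 0.00094), HMOX1 at -0.67 (SE 0.21, adjusted p = 0.02), SLC7A11 at 0.94 (SE 0.24, adjusted p = 0.0073) and GCLM at 0.70 (SE 0.18, adjusted p = 0.0071). This was 2 of 9 higher and 2 of 9 lower, where 17.0% of 15821 genes were higher and 17.9% lower. For SRXN1 the difference held in every alternative run, at -1.74 with offsets (adjusted p = 0.0054). The difference of the guides also holds the difference between their control groups. For SRXN1 the control groups differed by 1.37 under the names of the count table and 1.51 under those of the FPKM table. The guides compared directly differed by -0.63 and -0.51 in the same order. With offsets TXN passed at -0.68 (adjusted p = 0.031), GCLM and SLC7A11 were at 0.27 and 0.25 (adjusted p 0.36 and 0.4), and HMOX1 changed sign to 0.10 (adjusted p = 0.79). HMOX1 also missed the threshold with no filter on low counts or without sgUFM1 replicate 2 or 3, set 1 replicate 2 or set 2 replicate 2 (adjusted p 0.05 to 0.064).

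**Figure D3:**
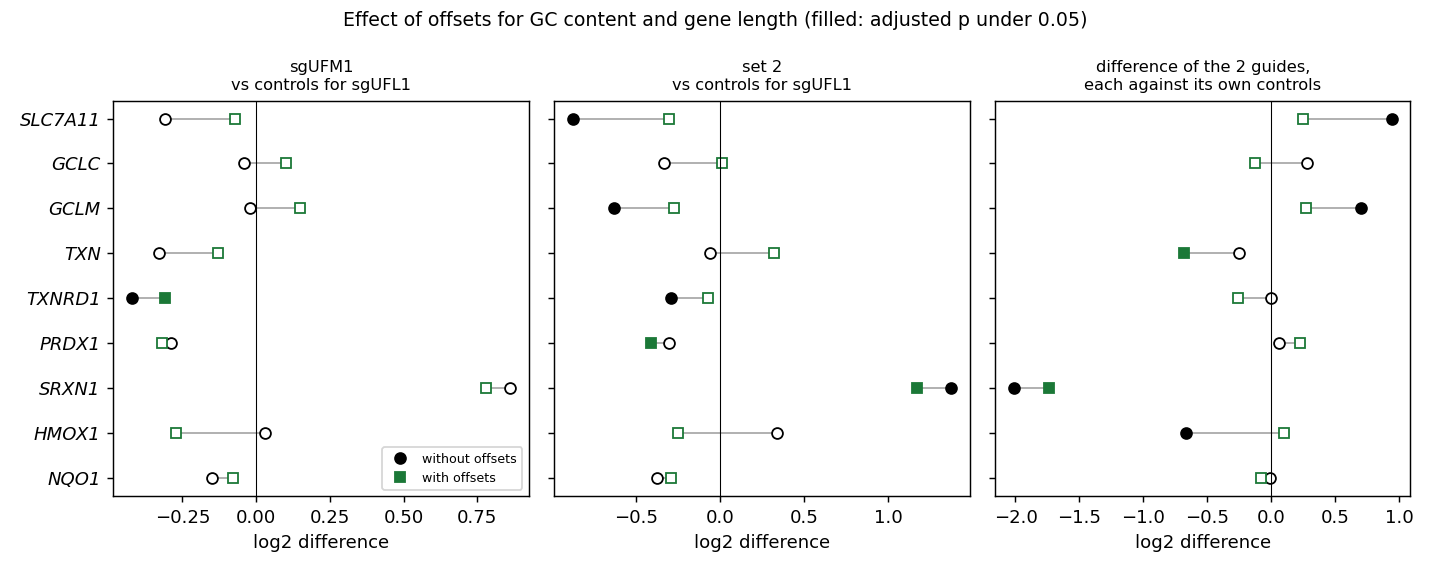
Log2 differences (horizontal axis) of the 9 genes without (circles) and with (squares) offsets for GC content and gene length, in sgUFM1 against the controls for sgUFL1, set 2 against those controls, and the difference of the guides. Filled symbols passed the threshold. SRXN1 moves little in set 2 (1.37 and 1.17), while HMOX1 changes sign in the difference of the guides (-0.67 and 0.10).

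The GC content of the counted transcripts moved with these results. It was 50.39% to 50.85% in sgUFM1, 50.84% to 51.07% in set 1 and 50.95% to 51.46% in set 2, against 48.97% to 49.96% in the controls for sgUFL1. The rank correlation of log2 fold change with GC content was taken across genes, which are not independent replicates. It was 0.74 for set 1, 0.73 for set 2 and 0.52 for sgUFM1 against the controls, and -0.68 for the difference of the guides. For sgUFM1 it was -0.46 against set 2 and -0.31 against set 1, and for set 1 against set 2 it was -0.31. Of the members, HMOX1 has the highest GC content of its transcripts (60.8%), and SLC7A11 and TXN have the lowest (38.6% and 37.6%). Markers of fibroblasts and endothelium summed to 50.2 to 54.9 CPM in sgUFM1, 29.9 to 38.1 CPM in set 1, 37.3 to 39.8 CPM in set 2 and 28.4 to 32.2 CPM in the controls for sgUFL1. The part of GC content or of these markers in the members' differences was not tested.

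Within sets the members did not spread independently. NQO1, PRDX1, TXN, GCLM and GCLC were low in replicate 1 of set 1 and of the controls and high in set 1 replicates 2 and 3 and in controls replicate 2, with NQO1 furthest out (log2 CPM -0.57, 0.31 and 0.26 from its mean in set 1, and -0.28, 0.56 and -0.28 in the controls). SLC7A11 was at 0.25, 0.01 and -0.25 in set 1 and at 0.15, -0.35 and 0.19 in the controls, so it was opposite to NQO1 in sign in 5 of these 6 libraries. TXNRD1 stayed within 0.09 of its set mean throughout. As a description over the 12 libraries, Pearson's coefficient of deviations within sets was 0.96 for NQO1 with PRDX1, 0.89 for GCLC with GCLM and -0.76 for NQO1 with SLC7A11. The libraries share sets, depth and composition, and no test was made. Wide spread in these sets was not limited to the members. Over genes at large the chi-square per gene between set 1 replicate 1 and replicates 2 and 3 was 20.5 and 20.1. Between set 1 replicates 2 and 3 it was 2.41. In the controls it was 20.2 for replicates 1 and 2, 34.9 for 2 and 3, and 16.8 for 1 and 3.

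**Figure D4:**
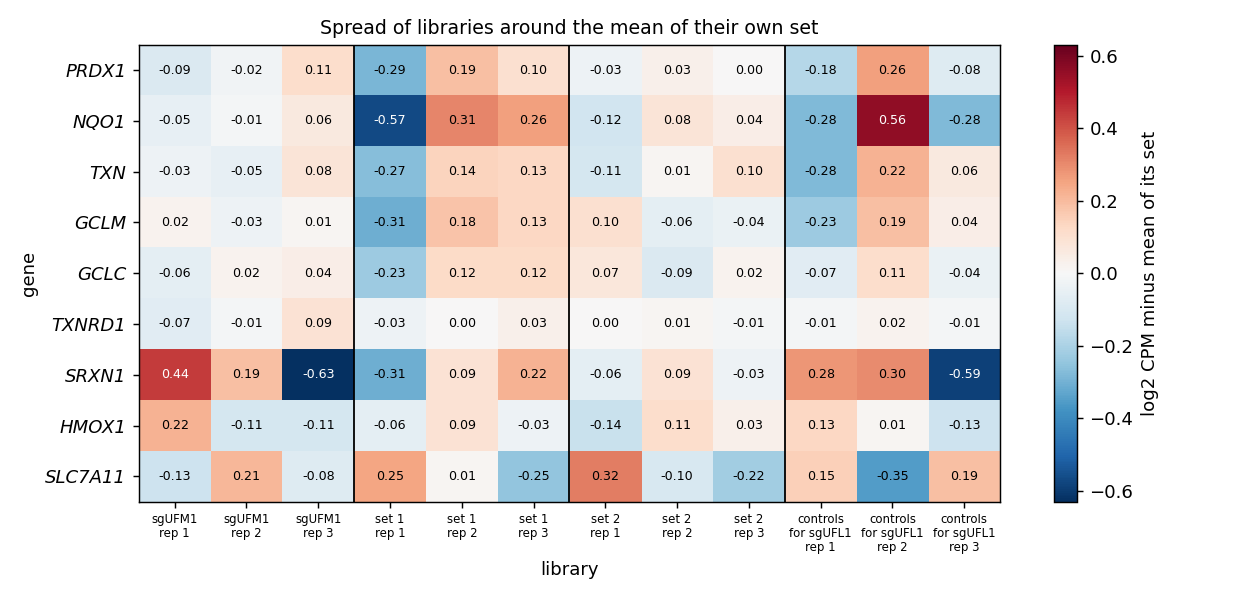
Deviation of each library from the mean of its own set in log2 CPM (colour, with the value printed), genes as rows and libraries as columns. NQO1, PRDX1, TXN, GCLM and GCLC are blue in set 1 replicate 1 and red in controls for sgUFL1 replicate 2, and SRXN1 spreads most in sgUFM1 (0.44 to -0.63).

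The regulators of the pathway were read from a list of 17 genes, of which all were tested. NFE2L2, which encodes NRF2 itself, averaged 101 ± 5.4 CPM in sgUFM1, 90.7 ± 1.62 CPM in set 1, 68.2 ± 4.36 CPM in set 2 and 116 ± 13.5 CPM in the controls for sgUFL1 (SD, n = 3 each). It fell by 0.78 on the log2 scale in set 2 against those controls (adjusted p = 0.0012) and rose by 0.58 in sgUFM1 against set 2 (adjusted p = 9.1e-06), and both passed with offsets (-0.49 and 0.44). Against the controls for sgUFL1, NFE2L2 was at -0.20 in sgUFM1 (adjusted p = 0.26). It did not pass in sgUFM1 against set 1 (0.16) or in set 1 against the controls (-0.34). Which guide changed NFE2L2 against its own controls thus depends on which table's names are right. KEAP1, the NRF2 inhibitor, averaged 132 ± 4.07 CPM in sgUFM1 and 93.6 ± 20.7 CPM in the controls, higher by 0.49 (adjusted p = 0.041), a call that ended with offsets (0.22) and in most fits with a library left out. In sets 1 and 2 KEAP1 averaged 141 and 142 CPM, so the sgUFM1 mean was not above theirs. BACH1 averaged 61.7 ± 3.88 CPM in sgUFM1 and 82.6 ± 19.8 CPM in the controls, at -0.43 (adjusted p = 0.084). Its means in sets 1 and 2 were 57.9 and 53.8 CPM, below that of sgUFM1. NFE2L2 RNA does not measure NRF2 protein, which is set largely by degradation. In sgUFM1 against the controls 2 of 17 regulators were higher and 0 lower, with a median of 0.04, beside 5.57% of all genes higher and 4.43% lower. With offsets 0 of 17 were called, beside 646 of 15035 genes higher and 585 lower. The regulator called without offsets beside KEAP1, named after its values were seen, was SYVN1, an ER ubiquitin ligase, at 0.38 (adjusted p = 0.044, 0.20 with offsets). SYVN1 averaged 88.7 CPM in sgUFM1, 77.3 CPM in set 1, 70.7 CPM in set 2 and 67.7 CPM in the controls.

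Of 30 other NRF2 targets, 27 were tested in sgUFM1 against the controls for sgUFL1, and 2 were higher and 0 lower (median 0.05, against 0 for all genes), beside 5.57% of all genes higher and 4.43% lower. ABCC3, an export pump for conjugates, rose by 0.74 on the log2 scale (adjusted p = 0.011), with 19.8 ± 0.934 CPM in sgUFM1 against 11.7 ± 1.66 CPM in the controls (SD, n = 3 each). Its call ended without sgUFM1 replicate 1 or 2 (adjusted p 0.07 and 0.056). The other, AKR1C3, an aldo-keto reductase, rose by 0.72 (adjusted p = 0.033). In the difference of the guides 3 of the 27 were higher and 3 lower, beside 17.0% and 17.9% of all genes, with OSGIN1 at -1.24 (adjusted p = 8e-04) and UGDH, which makes UDP-glucuronate, at 0.62 (adjusted p = 0.0024). The others were ABCC2 (0.99), ME1 (0.70), BLVRB (-0.87) and CBR1 (-0.56), and BLVRB changed sign with offsets (0.02). Of 21 glutathione enzymes, 1 was higher and 2 lower in sgUFM1 against the controls (median -0.16), among them GLO1, glyoxalase, which fell by 0.63 (adjusted p = 0.0067, and 0.062 and 0.051 without sgUFM1 replicate 1 or 2). MGST1 fell by 0.51, though not with offsets (-0.30), and GPX1, a glutathione peroxidase, rose by 0.78. Against set 2 the same list had 2 of 21 higher and 7 lower in sgUFM1 (median -0.17), beside 19.3% and 18.5% of all genes. With offsets it had 3 higher and 10 lower, beside 2438 of 15083 genes higher and 2521 lower. Of 22 other thioredoxin, peroxiredoxin and peroxide enzymes, 1 was higher and 1 lower (median 0.01), and PRDX5, a peroxiredoxin of mitochondria and peroxisomes, rose by 0.50 (adjusted p = 0.047) but not with offsets (0.17), nor without any sgUFM1 library or replicate 3 of the controls (adjusted p 0.095 to 0.23), while MSRB3, a methionine sulfoxide reductase, fell by 0.42. AKR1C3, ABCC2, ME1, CBR1, MGST1, GPX1 and MSRB3 were named after their values were seen. The counts of these enzymes against the controls stand beside the same 5.57% higher and 4.43% lower over all genes. GPX1 averaged 471 CPM in sgUFM1, 457 CPM in set 1, 569 CPM in set 2 and 273 CPM in the controls. In the same order PRDX5 averaged 100, 118, 163 and 70.2 CPM, and MGST1 140, 150, 130 and 199 CPM. Among the 4 sets, sgUFM1 had the highest mean of ABCC3 and AKR1C3 and the lowest of GLO1 and MSRB3.

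For each member the 2 protein-coding genes most like it were found among 10531 of at least 5 CPM, by Pearson's coefficient of log2 CPM over the 12 libraries, as a description. GCLM was closest to FAM13B (0.978) and DHX9 (0.971), SLC7A11 to ZNF37A (0.984) and DOP1A (0.981), SRXN1 to CCDC9 (0.981) and COQ8B (0.973), and NQO1 to PTMA (0.974) and CCND1 (0.963). TXNRD1 was closest to PLAC8 (0.949), PRDX1 was closest to LCP1 (0.978), TXN to MRPL32 (0.969), HMOX1 to DOHH (0.970) and GCLC to MAT2A (0.948).

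Reads could be shared in a few places. SRXN1 (chr20:646615-653370, minus strand, GRCh38) has 2292 of its 2698 exon bases in common with the annotated gene AL121758.1 on the same strand. That gene had 2 counts over all libraries against 1847 for SRXN1. How reads lying on both genes were counted is not stated. If they were left out, SRXN1 counts and FPKM are too low by an amount not known here. Strand is not stated for these libraries, so reads of PRDX1 and of MMACHC, which overlap by 379 exon bases on opposite strands, cannot be told apart, nor can those of SLC7A11 and SLC7A11-AS1 over 865 bases. Processed pseudogenes named after TXN and PRDX1 held at most 23 counts each.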

How the data were processed

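Per the labels' protocols, TRIzol RNA of MDA-MB-231 cells went into Illumina libraries; no strand is stated. The authors' deposited counts are whole reads per gene in 12 libraries, and their deposited FPKM values cover those libraries too. The tools named by the submitters' processing notes are fastp 0.20.1, STAR 2.7.7a and featureCounts 2.0.0, with GRCh38 as the build and no role or setting given. All 58735 gene identifiers are in GENCODE release 29. FPKM times gene length was matched to the counts, column by column, over 12320 genes of at least 20 counts. The SD of the log2 ratio was at most 6.5e-10 for the match and at least 0.1926 for the next best. Names were the same for 6 libraries and exchanged for 6.

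The test on the counts was edgeR's quasi-likelihood test (edgeR 4.0.16, limma 3.58.1, R 4.3.3) after filterByExpr and TMM scaling, with p adjusted by Benjamini-Hochberg over all genes tested and a threshold of 0.05, with the 6 libraries of a pair in each model and all 12 in the difference of the guides. Two-sided p-values are given. CPM values are TMM-scaled, and log2 CPM has a prior count of 1. Alternatives were RLE scaling, no filter, DESeq2 1.42.0, a replicate block, offsets per library from lowess (span 0.3) against GC content and length (GC known for 15030 of 15035 genes, all 9 members included), and each library left out in turn. The chi-square per gene between replicates was 2.41 to 34.9, so none was counted as a repeat. The procedure was tested on simulated data.

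The members, the gene lists and the comparisons were chosen with earlier results of these data known. Named genes are the 9 members, NFE2L2, KEAP1, BACH1, UFL1 and UFM1, and up to 4 genes of each other list with the smallest p past the threshold in sgUFM1 against the controls for sgUFL1 or in the difference of the guides. Depth was 15342793 to 18033331 counts per library, so genes such as SRXN1, at a few CPM, rest on fewer reads than TXN. Of the measured marker genes 1 is not reported here.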

Additional observations from a re-analysis of the deposited data

Results flagged for a closer look

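For 4 of the 9 members the difference between the 2 guides, (sgUFM1 minus set 2) minus (set 1 minus controls for sgUFL1), passed its own test in edgeR. Of all 15821 genes tested 17.0% were higher and 17.9% lower, so a call is common, for the members and for the genes named below. On the log2 scale the members' difference was -2.01 for SRXN1, -0.67 for HMOX1, 0.94 for SLC7A11 and 0.70 for GCLM. SRXN1 kept this with offsets for GC content and length (-1.74), HMOX1 changed sign (0.10), and SLC7A11 (0.25) and GCLM (0.27) were no longer past the threshold. For SRXN1 the control groups themselves differed by 1.37 or 1.51, depending on which table's names are right.

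Among the regulators the difference was 0.92 for NFE2L2, -0.69 for KEAP1, 0.71 for BACH1, -0.99 for MAFF, -1.31 for MAFK and 0.52 for GSK3B. Only NFE2L2 of these passed with offsets (0.58, adjusted p = 0.0026), and KEAP1 changed sign to 0.05. Among other targets it was -1.24 for OSGIN1, 0.62 for UGDH and -0.87 for BLVRB. OSGIN1 and UGDH passed with offsets (-0.64 and 0.45) and BLVRB changed sign to 0.02.

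Among glutathione, thioredoxin and peroxide enzymes the difference was -0.83 for GPX4, -0.88 for GLRX5, -0.98 for HAGH, -1.21 for TXNRD2, -1.46 for PRDX5, -0.93 for TXNDC17 and -1.0 for CCS. GLRX5, TXNRD2, PRDX5 and TXNDC17 passed with offsets (-0.93, -0.75, -0.60 and -1.23), and GPX4 changed sign to 0.17.

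Among ER folding enzymes, ATF4 targets and haem or iron genes it was 0.77 for ERO1A, -1.58 for TXNDC5, -0.63 for QSOX1, 0.83 for ERP44, 0.74 for VLDLR, -0.63 for CEBPB, 0.65 for XPOT, -1.11 for HMOX2, 0.55 for TFRC and 0.56 for NCOA4. TXNDC5 and HMOX2 passed with offsets (-1.53 and -0.73), and CEBPB passed in the opposite direction (0.52, adjusted p = 0.044). UFL1 itself stood at 1.35, and at 1.25 with offsets.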

How the results depend on the processing

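Of 747 values of the members under alternatives, 598 kept direction and side of the threshold, 34 newly passed, 46 no longer passed and 69 changed sign. HMOX1 in the difference of the guides was the member that was past the threshold on either side of such a change. With offsets for GC content and length these genes changed sign, to the log2 values given. In the difference of the guides they were HMOX1 0.10, GCLC -0.13, BLVRB 0.02, ABCC3 0.06, GPX4 0.17, GLO1 -0.27, DDIT4 0.67, CEBPB 0.52 and KEAP1 0.05, with DDIT4 (adjusted p = 0.0011) and CEBPB (adjusted p = 0.044) past the threshold. In sgUFM1 against the controls they were HMOX1 -0.27, GCLC 0.10, GCLM 0.15, OSGIN1 -0.06, BLVRB -0.08, GLRX5 0.05, GPX4 -0.38, HAGH -0.01, TXNRD2 -0.21, ERO1A 0.10, QSOX1 -0.09 and NCOA4 0.05. In sgUFM1 against set 1 they were GCLM -0.00 and SLC7A11 -0.05. In set 1 against the controls they were HMOX1 -0.13, GCLM 0.16, TXNRD1 0.02, TXN 0.22 and UFM1 0.07. In set 2 against the controls they were HMOX1 -0.25, GCLC 0.01, TXN 0.32 and UFM1 0.24. In set 1 against set 2 they were HMOX1 0.11 and TXN -0.09. RLE scaling and DESeq2 moved PRDX1 in sgUFM1 against set 2 to -0.00 and TXNRD1 in the difference of the guides to 0.00. TXN in set 1 against set 2 went to -0.00 with no filter and to -0.01 with the replicate block. With 1 library left out, genes that changed sign ranged as follows. In sgUFM1 against the controls: HMOX1 -0.09 to 0.10, NQO1 -0.29 to 0.18, GCLC -0.07 to 0.02, GCLM -0.12 to 0.08, GSK3B -0.03 to 0.06, GLRX5 -0.08 to 0.07, GPX4 -0.04 to 0.07, TXNRD2 -0.13 to 0.18, TXNDC17 -0.03 to 0.22, ERP44 -0.01 to 0.17, HMOX2 -0.09 to 0.07, TFRC -0.04 to 0.05 and UFL1 -0.25 to 0.06. In sgUFM1 against set 2 it was PRDX1, -0.04 to 0.05. In sgUFM1 against set 1: GCLC -0.13 to 0.02, GCLM -0.06 to 0.17 and SLC7A11 -0.03 to 0.23. In set 1 against the controls: GCLC -0.05 to 0.11, GCLM -0.18 to 0.05, PRDX1 -0.14 to 0.10 and TXN -0.14 to 0.10. In set 2 against the controls it was TXN, -0.17 to 0.05. In set 1 against set 2: HMOX1 -0.09 to 0.03, SRXN1 -0.01 to 0.23 and TXN -0.06 to 0.11. In the difference of the guides: NQO1 -0.35 to 0.16, TXNRD1 -0.02 to 0.06 and PRDX1 -0.08 to 0.18. With the offsets called genes numbered 1315 for set 2 against the controls for sgUFL1 (main 5438), with 1 member lower, 1473 for the difference of the guides (main 5511), with 0 members higher, and 0 for set 1 against the controls (main 165), with 0 members higher. With no filter on low counts there were 2315 genes and 1 member higher for sgUFM1 against the controls, 4 members lower for sgUFM1 against set 1, 1921 genes for set 1 against the controls, 1116 genes and 3 members higher for set 1 against set 2, and 1 member lower in the difference of the guides. DESeq2 gave 1 member higher for sgUFM1 against the controls, 1697 genes for set 1 against the controls, and 685 genes and 1 member higher for set 1 against set 2. RLE scaling gave 0 genes and 0 members higher for set 1 against the controls. The median shift from RLE scaling or offsets was at most 0.043 on the log2 scale in size. The cause of these changes was not tested. The replicate numbers did not pair all libraries: in no comparison did all 3 same-numbered correlations of deviations exceed 0.1. Between set 1 and the controls the correlations were 0.47, 0.49 and -0.29 for replicates 1, 2 and 3, and between sets 1 and 2 they were 0.24, 0.11 and 0.07. In the other comparisons they ran from -0.13 to 0.17. Whether some of the libraries are paired was not tested. The replicate block gave 1 member higher (SRXN1 0.85, adjusted p = 0.022) for sgUFM1 against the controls, 0 members lower for sgUFM1 against set 1, 0 genes and 0 members higher for set 1 against the controls, and 832 genes and 3 members higher for set 1 against set 2. It ended the calls of TXNRD1 in sgUFM1 against set 1 (adjusted p = 0.085) and in set 2 against the controls (adjusted p = 0.064), and of SRXN1 in set 1 against the controls (adjusted p = 0.055). With 1 library left out, called genes and members higher and lower ranged as follows. For sgUFM1 against the controls they were 275 to 4196, 0 to 1 and 0 to 2. For sgUFM1 against set 2 they were 4163 to 6525, 2 to 4 and 1 to 4. For sgUFM1 against set 1 they were 118 to 4080, 0 to 0 and 0 to 5. For set 1 against the controls they were 0 to 2419, 0 to 1 and 0 to 1. For set 2 against the controls they were 2486 to 6985, 1 to 1 and 2 to 3. For set 1 against set 2 they were 13 to 2564, 0 to 4 and 0 to 0. For the difference of the guides they were 4061 to 6321, 2 to 2 and 1 to 2. The highest gene counts came without replicate 1 of set 1 or replicate 2 of the controls, except for sgUFM1 against set 2, where it was without set 2 replicate 1. Depth limits SRXN1 and HMOX1 most.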

Other observations

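Genes of oxidative folding in the ER, which make peroxide as they form disulfides, were read in sgUFM1 against the controls for sgUFL1. Of 18 tested, 4 were higher and 0 lower, with a median log2 fold change of 0.12 against 0 for all genes. Of all genes 5.57% were higher and 4.43% lower. TXNDC5, a disulfide isomerase, rose by 1.14 on the log2 scale (adjusted p = 0.0078, 1.14 with offsets). TXNDC5 averaged 22.7 CPM in sgUFM1, 25.9 CPM in set 1, 27 CPM in set 2 and 10.3 CPM in the controls. Its mean in sgUFM1 thus lay below those of sets 1 and 2. The other genes called higher, named after their values were seen, were SELENOS (0.58), PDIA4 (0.49) and P4HB (0.43), of which P4HB did not pass with offsets (0.23). SELENOS, PDIA4 and P4HB had their highest set mean in sgUFM1. In sgUFM1 against set 2, 12 of 18 were higher and 2 lower (median 0.35), where 19.3% of all genes were higher and 18.5% lower. With offsets for GC content and length 8 were higher and 1 lower (median 0.14), beside 2438 of 15083 genes higher and 2521 lower. Of 22 ATF4 targets tested, 2 were higher and 0 lower against the controls (median 0.13), beside the same shares of all genes. DDIT4, a stress-induced inhibitor of mTORC1, rose by 1.16 (adjusted p = 0.0014, 0.82 with offsets), with 89.7 ± 5.2 CPM in sgUFM1 and 39.9 ± 9.2 CPM in the controls (SD, n = 3 each). In sets 1 and 2 DDIT4 averaged 60.9 and 70.5 CPM, below sgUFM1. CEBPB, a transcription factor, rose by 0.81 (adjusted p = 0.011, 0.40 with offsets), a call that ended without sgUFM1 replicate 1 or replicate 1 of the controls (adjusted p 0.058 and 0.059). CEBPB averaged 241 CPM in sgUFM1, 239 CPM in set 1, 213 CPM in set 2 and 137 CPM in the controls. Of 16 haem and iron genes, 1 was higher and 0 lower (median 0.02), again beside 5.57% and 4.43% of all genes. It was PCBP1 at 0.47, named after its value was seen. PCBP1 averaged 196 CPM in sgUFM1, 199 CPM in set 1, 208 CPM in set 2 and 141 CPM in the controls.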
